A study of Mus musculus with 12 samples.

Results

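A group of 7 genes of the response to low oxygen was followed in mouse tumours treated with an immunostimulatory peptide, an antibody against PD-L1, or both. The genes were Vegfa, Bnip3, Hif1a, Adm, Ndrg1, P4ha1 and Egln3, chosen by symbol under the heading of hypoxia-induced genes outside glycolysis. All 7 had a row among the 19921 symbols of each count table. Hif1a differs from the others in that oxygen acts mainly on its protein. Cells sense oxygen through prolyl hydroxylases, which mark the transcription factor subunit HIF-1 alpha for destruction by the VHL ubiquitin ligase while oxygen is present. When oxygen is short the protein accumulates, pairs with ARNT and switches on genes for vessel growth, mitochondrial removal, collagen maturation and glycolysis. Solid tumours often hold poorly perfused regions, and macrophages and fibroblasts as well as carcinoma cells can carry this response. Counts of RNA do not measure HIF-1 alpha protein, and oxygen was not measured.

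Subcutaneous tumours of Colon26, a mouse colon carcinoma line, were grown in wild-type BALB/c mice from 200000 cells, and tumours were taken on day 10. The 4 groups of 3 tumours, 1 per implanted mouse, were minP1 plus anti-PD-L1 (called the combination), anti-PD-L1 alone, minP1 alone, and control. The antibody (clone 10F.9G2) was injected into the peritoneum at 200 µg on days 4 and 8. The HMGN1-derived peptide minP1 was injected by the same route at 0.08 µg on day 9. In the combination the treatment field of the labels names the antibody only, and the peptide is taken from the sample titles. In every group an enzyme digest (collagenase with DNase I) was followed by a Percoll gradient meant to take out the carcinoma cells and the dead cells. That step limits what these libraries show of the carcinoma itself, and fewer cells of a type cannot be told apart from less RNA per cell.

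Each library was a set of 5′-end tags of polyA RNA counted per gene symbol, and levels were compared between groups and not between genes. Totals were 133917 to 196109 counts in the combination, 188008 to 322493 in anti-PD-L1, 276203 to 322613 in minP1 and 285753 to 473273 in control. The rows Bc1 and Lrrc17 took 2.49% to 6.32% of counts in the combination, 2.35% to 4.42% in anti-PD-L1, 1.497% to 4.17% in minP1 and 1.36% to 2.34% in control. Every combination and anti-PD-L1 share lay above every control share. The fits below that take this level as a covariate can therefore separate it from the group only in part. Levels are given as CPM, that is, tags scaled to equal library size after edgeR's TMM normalisation. Errors after ± are the SD where a level is given (n = 3 libraries) and the SE where a log2 fold change is given. Adjusted p-values are from edgeR's quasi-likelihood test with Benjamini-Hochberg adjustment over the 5443 genes that passed a filter on low counts, and a gene was called at an adjusted p of 0.05 or less. Of the 7 genes, 5 passed that filter (Bnip3, Hif1a, Vegfa, Ndrg1 and P4ha1). Adm and Egln3 did not reach the filter's level of 34.8 CPM in any library.

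The markers of the cells that could carry these genes differed between groups. The 9 macrophage markers with a row summed to 1969 to 4413 CPM in the combination and 956 to 1170 CPM in control, with none at 0 in either group. These markers split, in counts not scaled for the deeper control libraries: Apoe gave 557 in the combination and 183 in control. C1qc gave 208 and 208, C1qb 24 and 80, and Cd68 1 and 4, in the same order. The 10 fibroblast markers summed to 942 to 1434 CPM in the combination and 1362 to 1872 CPM in control, again with none at 0. They split too, with Sparc at 43 counts in the combination and 475 in control, and Lum at 27 and 16. Endothelial markers were scarce, with 45.1 to 76.8 CPM over 10 genes in the combination (Kdr, Tek and Vwf at 0) and 10.97 to 37.2 CPM in control (Vwf and Cldn5 at 0). They split as well: Pecam1 gave 15 of the 25 unscaled counts in the combination and 4 of the 26 in control. Cdh5 gave 4 in the combination and 10 in control, and Kdr 0 and 5, so the higher sum does not show more endothelium. The 7 carcinoma and epithelial markers with a row held 18 counts in the combination (0 to 89.5 CPM, none at 0 over the group) and 18 in control (3.66 to 24.6 CPM, Krt18 and Cldn3 at 0). The 9 T cell markers with a row summed to 179 to 256 CPM in the combination and 32.9 to 73.9 CPM in control (Cd4 at 0), and the 9 neutrophil markers to 519 to 615 CPM in the combination (Retnlg and Ly6g at 0) and 318 to 375 CPM in control (Ly6g at 0). The neutrophil markers split, with Mmp9 at 72 counts in the combination and 3 in control, S100a9 at 80 and 22, and Cxcr2 at 57 and 294. Thy1 stands in both the T cell and the fibroblast list and gave 47 of the 92 T cell counts in the combination and 35 of the 61 in control. The other T cell markers split, with Cd2 at 18 unscaled counts in the combination and 3 in control, Cd8b1 at 3 and 7, and Cd8a at 1 and 4. The 8 common leukocyte markers summed to 603 to 888 CPM in the combination and 552 to 705 CPM in control, with overlap. Among them Ptprc held 13 counts in the combination and 71 in control, and Laptm5 137 and 155. The part of all these cell types in the results below was not tested.

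The genes did not move as a block. In the combination against control Bnip3, which removes mitochondria, rose 2.41-fold, while Vegfa, the vessel growth factor, fell to 27.6 ± 16.7 CPM in the combination, against 91.2 ± 43.4 CPM in control. Hif1a was measured at 0.79 ± 0.33 log2 units above control, and Ndrg1 and P4ha1 at -0.73 ± 0.39 and -0.82 ± 0.39, and none of these 3 passed. So 1 of the 5 tested genes was called higher, where 16.5% of all tested genes were, and 1 was called lower, where 18.3% of all were. Over the 5 tested genes the median log2 fold change was -0.73, and over all tested genes it was -0.06. Either lone treatment against control gave no call among the 5, with 1.12% of all tested genes called in anti-PD-L1 (0.551% higher and 0.57% lower) and 0% in minP1. A p that misses the threshold does not show that levels were equal.

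**Figure D1:**
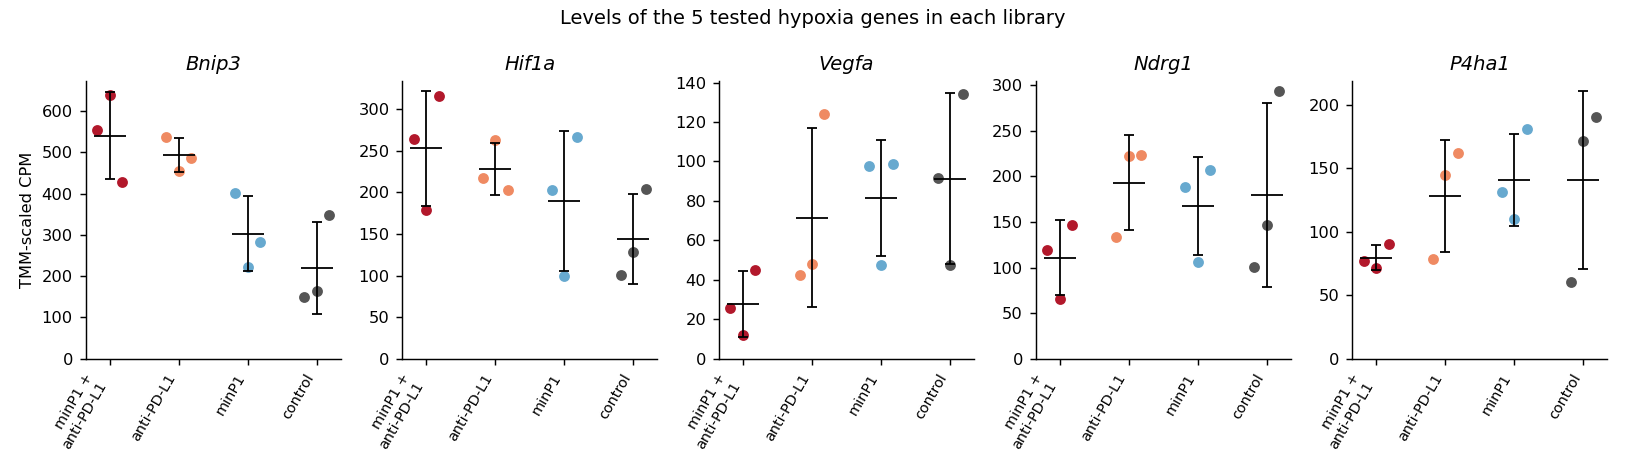
Level of the 5 tested hypoxia genes in every library, in TMM-scaled CPM (vertical axes start at 0), by group. Coloured points are libraries and black bars are the mean ± SD of 3; the combination libraries of Bnip3 all lie above, and those of Vegfa all below, every control library.

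Hif1a encodes the oxygen-regulated subunit itself (chromosome 12, 73901375 to 73947530, plus strand, GRCm38). It was read at 265, 179 and 316 CPM in the combination, 218, 263 and 203 CPM in anti-PD-L1, 203, 98.9 and 267 CPM in minP1, and 100.2, 128 and 204 CPM in control. The group means ran from the combination (253 ± 69.2 CPM) through anti-PD-L1 (228 ± 31.3 CPM) and minP1 (190 ± 84.8 CPM) to control (144 ± 53.6 CPM), and every pair of neighbours in that order overlapped. Of the combination libraries 2 lay above every control. The difference from control did not pass in the combination (0.79 ± 0.33, adjusted p = 0.065), in anti-PD-L1 (0.65 ± 0.32, adjusted p = 0.29) or in minP1 (0.38 ± 0.32, adjusted p = 0.865). The 95% interval of the first difference was 0.11 to 1.48. The combination differed from minP1 by 0.41 ± 0.33 (adjusted p = 0.391) and from anti-PD-L1 by 0.15 ± 0.33 (adjusted p = 0.832). Against control it passed in 7 of 21 alternatives, among them those without control replicate 3 (1.15 ± 0.37, adjusted p = 0.023), without combination replicate 2 (1.07 ± 0.36, adjusted p = 0.0344), without minP1 replicate 2 (0.84 ± 0.29, adjusted p = 0.0248) and without minP1 replicate 3 (0.83 ± 0.32, adjusted p = 0.0467). It also passed with both minP1 replicate 2 and anti-PD-L1 replicate 1 left out (0.83 ± 0.29, adjusted p = 0.0241) and with the Bc1 and Lrrc17 level as a covariate (1.65 ± 0.33, adjusted p = 0.000857). The highest adjusted p over the alternatives was 0.237. The antisense gene Gm15283, which overlaps Hif1a, held 1 count over all libraries. The protein-coding gene Gm49321 overlaps Hif1a on the same strand and had no row of its own.

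Egln3 (chromosome 12, 54178981 to 54203860, minus strand) encodes an oxygen-dependent prolyl hydroxylase of the HIF pathway that is itself induced by HIF. It was near the limit of these libraries, with 1, 1 and 6 counts in the combination, 2, 5 and 1 in anti-PD-L1, 1, 0 and 3 in minP1, and 0, 1 and 2 in control. The group sums were 8 counts in the combination and 3 in control, a ratio per scaled library of 6.17 with a 95% exact counting interval of 1.48 to 36.1. Of the 8 combination counts 6 came from replicate 3. Tested without the filter on low counts, Egln3 differed by 2.36 ± 1.0 (adjusted p = 0.131) in the combination and by 1.85 ± 1.0 (adjusted p = 0.663) in anti-PD-L1, both against control, and neither passed.

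The other genes of the oxygen-sensing pathway were taken from a list of 15, of which 14 had a row and 11 were tested. In the combination against control 1 was called higher and 3 lower, beside 16.5% higher and 18.3% lower over all tested genes, with a list median of 0.20. Vhl, the substrate receptor of the ubiquitin ligase that removes hydroxylated HIF-1 alpha, rose by 1.34 ± 0.50 (adjusted p = 0.0381), to 71.6 ± 28.3 CPM in the combination against 27.7 ± 11.2 CPM in control. Of the other genes of that ligase, 3 fell, with the ring protein Rbx1 at -1.57 ± 0.35 (adjusted p = 0.00158), the elongin subunit Elob at -1.88 ± 0.46 (adjusted p = 0.00295) and the scaffold Cul2 at -1.29 ± 0.49 (adjusted p = 0.0449). The other elongin subunit of the ligase, Tceb1, named after its value was seen, was at 0.03 ± 0.27 (adjusted p = 0.94). Rbx1 and Elob also serve other ubiquitin ligases. The counts behind these genes were small, 33 in the combination and 30 in control for Vhl, and 9 in the combination and 52 in control for Cul2. Without control replicate 3 the list had 0 called higher and 2 lower, with the Bc1 and Lrrc17 covariate 0 higher and 1 lower, and the combination against minP1 had 0 higher and 2 lower (Elob, adjusted p = 0.0247, and Rbx1, adjusted p = 0.0336). No gene of this list passed in minP1 or anti-PD-L1 against control, or in the combination against anti-PD-L1.

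Among the secreted members, Vegfa (chromosome 17, 46016993 to 46032369, minus strand) encodes the main growth factor for new vessels. It was read at 25.6, 11.9 and 45.1 CPM in the combination, 42.3, 48.2 and 124 CPM in anti-PD-L1, 97.8, 47.6 and 98.8 CPM in minP1, and 91.6, 47.5 and 134 CPM in control. Every combination library lay below every control library and every minP1 library, and anti-PD-L1 replicate 1 was the sole other library under 45.1 CPM. In the combination against control the log2 fold change of Vegfa was -1.73 ± 0.54 (adjusted p = 0.016), a 3.31-fold difference with a 95% interval of -2.84 to -0.61 log2 units. It rested on 13 counts in the combination and 105 in control, and Vegfa reached the filter's level in 1 of 3 combination libraries and in all 3 of each other group. A gap of this kind in the lower direction was seen in 25.5% of all tested genes.

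The Vegfa call depended on single libraries. It did not pass without control replicate 3 (-1.33 ± 0.57, adjusted p = 0.087), without combination replicate 1 (-1.62 ± 0.61, adjusted p = 0.0555) or without combination replicate 2 (-1.27 ± 0.59, adjusted p = 0.117). Nor did it pass with the Bc1 and Lrrc17 covariate (-1.01 ± 0.60, adjusted p = 0.257). Over 21 alternatives the direction held and the adjusted p ran between 0.00185 and 0.257. Against minP1, Vegfa was at -1.53 ± 0.56 in the combination (adjusted p = 0.054), which passed in 9 of 21 alternatives with adjusted p between 0.0105 and 0.27 over all of them, and against anti-PD-L1 at -1.40 ± 0.57 (adjusted p = 0.133). The lone treatments differed from control by -0.33 ± 0.41 in anti-PD-L1 and -0.20 ± 0.40 in minP1, with adjusted p of 0.728 and 0.955.

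Adm (chromosome 7, 110627661 to 110629820, plus strand) encodes adrenomedullin, a secreted peptide that widens vessels and acts on endothelium. It held 1, 0 and 4 counts in the combination, 2, 0 and 0 in anti-PD-L1, 0, 2 and 0 in minP1, and 1, 1 and 1 in control. The sums of 5 and 3 counts in the combination and control gave a ratio per scaled library of 3.86 (95% exact counting interval 0.751 to 24.8), so no difference was detectable at this depth. Receptors were also scarce. Of 14 ligands and receptors of both pathways, 13 had a row and 3 were tested, and none was called in any comparison. The combination differed from control by -0.93 ± 0.78 for Nrp1 and 0.27 ± 0.31 for Nrp2, co-receptors of VEGF, and by -0.02 ± 0.55 for the VEGF receptor Flt1. Of those not tested, 3 are named after their counts were seen: the endothelial receptor Kdr had 0 counts in the combination and 5 in control, and the adrenomedullin receptor Calcrl 1 in each. The related ligand Vegfb held 15 and 19 counts in the combination and control.

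Bnip3 (chromosome 7, 138890836 to 138909519, minus strand) encodes a protein of the outer mitochondrial membrane that marks mitochondria for removal by autophagy. It was read at 555, 639 and 429 CPM in the combination, 538, 456 and 486 CPM in anti-PD-L1, 403, 223 and 283 CPM in minP1, and 149, 165 and 349 CPM in control. Every combination library lay above every minP1 library, as in 16.6% of tested genes. The combination and anti-PD-L1 libraries overlapped each other, as did those of minP1 and control. Bnip3 rose by 1.27 ± 0.30 in the combination against control (adjusted p = 0.00225), with a 95% interval of 0.65 to 1.88, on 248 counts in the combination and 253 in the deeper control libraries. No overlap in the higher direction was found in 20.4% of all tested genes in that comparison. The call held in all 21 alternatives, at 1.08 to 1.78 with adjusted p of 0.000182 to 0.014, and the log2 fold change was smallest without control replicate 1.

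With anti-PD-L1 alone Bnip3 stood 1.13 ± 0.29 above control in 3 of 3 libraries and just missed the threshold (adjusted p = 0.0509), where 11.1% of all tested genes had no overlap in that direction. It passed in 8 of 21 alternatives, among them only the groups compared (1.17 ± 0.29, adjusted p = 0.0332), library sizes over all symbols (1.16 ± 0.29, adjusted p = 0.0487), DESeq2 (1.13 ± 0.32, adjusted p = 0.0194), no filter on low counts (1.15 ± 0.27, adjusted p = 0.00533), and leaving out control replicate 3 (1.65 ± 0.30, adjusted p = 0.00427), minP1 replicate 2 (1.16 ± 0.28, adjusted p = 0.0178) or combination replicate 3 (1.15 ± 0.29, adjusted p = 0.0402). With minP1 alone the difference was 0.43 ± 0.29 (adjusted p = 0.819). The combination lay above minP1 by 0.83 ± 0.30 (adjusted p = 0.0475), the sole call among the 5 genes in that comparison, in which 9.19% of all tested genes were called higher. That call was lost in 9 of 21 alternatives. They were DESeq2 (adjusted p = 0.052), no filter (0.09), the Bc1 covariate (0.0581), the fit with both minP1 replicate 2 and anti-PD-L1 replicate 1 left out (0.0955), and leaving out minP1 replicate 2 (0.108), minP1 replicate 3 (0.1249), anti-PD-L1 replicate 2 (0.0606), combination replicate 1 (0.0928) or combination replicate 2 (0.152). The log2 fold change ran between 0.69 and 1.09 over all of them. Against anti-PD-L1 the combination differed by 0.13 ± 0.29 (adjusted p = 0.826), with an interval of -0.47 to 0.73.

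**Figure D2:**
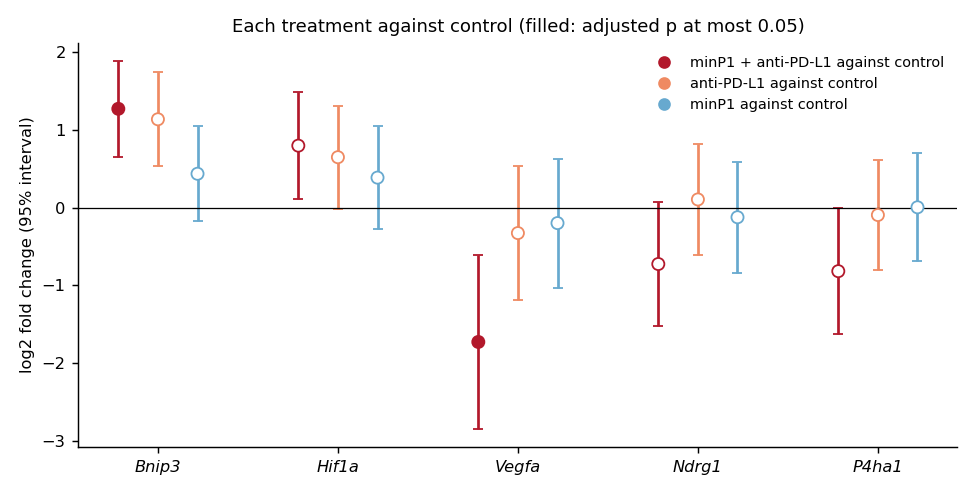
Log2 fold change of each tested gene in the combination, anti-PD-L1 and minP1 against control (vertical axis, with 95% intervals from edgeR's quasi-likelihood test); filled points have an adjusted p of 0.05 or less. The 3 comparisons share the control libraries; only Bnip3 (1.27) and Vegfa (-1.73) in the combination are filled.

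The level of Bnip3 relative to Vegfa can be read inside each library, where scaling between libraries has no part. Such a ratio also rises if either gene alone moves, so it cannot show that the genes took opposite courses. The direction of each gene rests on the scaled levels above. Bnip3 counts per Vegfa count were 21.7, 53.5 and 9.5 in the combination, 12.7, 9.46 and 3.92 in anti-PD-L1, 4.12, 4.69 and 2.87 in minP1, and 1.63, 3.46 and 2.6 in control. The combination and control ratios did not overlap, nor did those of anti-PD-L1 and control, while anti-PD-L1 and minP1 overlapped. This ratio was chosen after the values were seen, so it is a description and carries no test. In the combination it rests on 3, 2 and 8 Vegfa counts.

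**Figure D3:**
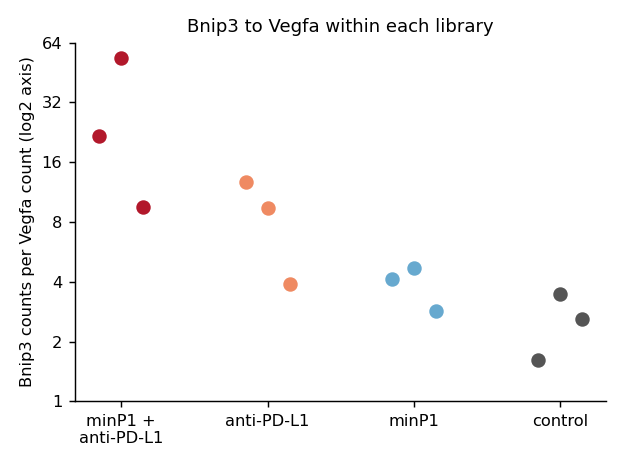
Bnip3 counts divided by Vegfa counts in each library (log2 axis), by group; each point is a library. The combination libraries sit at 9.5 to 53.5, the control libraries at 1.63 to 3.46.

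The start of each gene was searched for the core of the hypoxia response element, to which HIF binds, a search planned for all members. The letters ACGTG and GCGTG were searched on both strands in the 250 bases before the RefSeq start (GRCm38.p6), and the palindrome CACGTG counts as a match on each strand. Such a window held at least 1 match in 38.6% of 32851 promoters, and at least 3 in 6.58%. RefSeq promoters were matched for 6 of the 7 genes. Bnip3 had 5 matches, which 1.01% of windows reached or passed, P4ha1 had 3, and the Vegfa window shown had 0. These windows are shown 5′ to 3′ on the gene's strand, with the matched letters in capitals, for the gene that rose, the gene that fell, and P4ha1, whose difference did not pass. The window of a second listed Vegfa start, not shown, had 2 matches. It covers 46025164 to 46025413, inside the Vegfa gene (46016993 to 46032369), so its letters are also transcribed sequence of that gene.
Bnip3, chr7:138909507-138909756, minus strand: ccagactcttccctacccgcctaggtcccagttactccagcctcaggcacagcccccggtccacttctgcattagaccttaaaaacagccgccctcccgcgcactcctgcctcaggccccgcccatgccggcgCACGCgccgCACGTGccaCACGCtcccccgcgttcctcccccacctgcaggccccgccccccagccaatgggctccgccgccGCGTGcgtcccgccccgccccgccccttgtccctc
Vegfa, chr17:46032378-46032627, minus strand: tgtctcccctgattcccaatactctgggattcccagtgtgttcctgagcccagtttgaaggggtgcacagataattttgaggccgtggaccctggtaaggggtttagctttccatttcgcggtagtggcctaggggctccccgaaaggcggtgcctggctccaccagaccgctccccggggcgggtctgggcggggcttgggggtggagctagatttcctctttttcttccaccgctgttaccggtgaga
P4ha1, chr10:59323046-59323295, plus strand: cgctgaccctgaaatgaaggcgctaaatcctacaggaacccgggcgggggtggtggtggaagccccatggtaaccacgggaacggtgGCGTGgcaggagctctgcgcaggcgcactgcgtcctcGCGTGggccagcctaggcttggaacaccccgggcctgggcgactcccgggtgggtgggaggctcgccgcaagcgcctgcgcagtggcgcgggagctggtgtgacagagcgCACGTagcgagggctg

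In Bnip3 the CACGTG palindrome lies 108 bases before the start, between matches at 117 and 99 bases, with another at 35 bases. In P4ha1 the matches lie 163, 126 and 16 bases before the start. Hif1a had 3 matches, Adm 2 and Egln3 1 in windows of the same length. A match is a description of letters and not a bound site, and the empty Vegfa window says nothing of elements farther from the start. Whether the number of matches has a part in the levels was not tested.

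Bnip3l, the closest relative of Bnip3, which also drives mitochondrial removal and is a HIF target, fell in the combination against control (-1.01 ± 0.32, adjusted p = 0.0188). It stood at 74.7 ± 13.5 CPM in the combination and 151 ± 51.3 CPM in control, without overlap. In the list of mitophagy genes and of the BNIP3 and NDRG families, 9 of 14 genes were tested, and 2 were called higher and 1 lower in that comparison, near the 16.5% and 18.3% over all tested genes, with a median of -0.04. The survival factor Bcl2l1 rose by 1.21 ± 0.29 (adjusted p = 0.00286) and the autophagosome protein Map1lc3a by 1.22 ± 0.44 (adjusted p = 0.0356). The mitophagy kinase Pink1 was at 0.67 ± 0.52 (adjusted p = 0.331). Without control replicate 3 the list had 1 called higher and 0 lower, and with the Bc1 and Lrrc17 covariate 0 in either direction.

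Ndrg1 (chromosome 15, 66929318 to 66969640, minus strand) encodes a cytoplasmic stress-response protein induced by hypoxia. It was read at 120, 65.6 and 147 CPM in the combination, 133, 222 and 224 CPM in anti-PD-L1, 188, 106 and 207 CPM in minP1, and 100.2, 146 and 293 CPM in control. The groups overlapped throughout, and combination replicate 2 was the lowest of the 12 libraries. The difference from control was -0.73 ± 0.39 in the combination (adjusted p = 0.15), 0.10 ± 0.34 in anti-PD-L1 (adjusted p = 0.912) and -0.12 ± 0.34 in minP1 (adjusted p = 0.981). In the combination it passed without control replicate 1 (-0.98 ± 0.37, adjusted p = 0.0473), was -0.15 without control replicate 3, and was 0.23 ± 0.39 (adjusted p = 0.721) with the Bc1 covariate, the other direction.

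P4ha1 (chromosome 10, 59323296 to 59373304, plus strand) encodes the catalytic subunit of the prolyl hydroxylase that stabilises collagen. It was read at 76.8, 71.6 and 90.3 CPM in the combination, 78.6, 145 and 162 CPM in anti-PD-L1, 132, 110 and 181 CPM in minP1, and 60.1, 172 and 190 CPM in control. All combination libraries lay under all minP1 libraries, as in 20.9% of tested genes, and control replicate 1 was the lowest library of all. The difference from control was -0.82 ± 0.39 in the combination (adjusted p = 0.109) and passed without control replicate 1 (-1.14 ± 0.33, adjusted p = 0.0122), and it was -0.13 with the Bc1 and Lrrc17 covariate. Against minP1 it was -0.82 ± 0.40 (adjusted p = 0.145) and against anti-PD-L1 -0.72 ± 0.41 (adjusted p = 0.289). The lone treatments were at -0.10 ± 0.34 for anti-PD-L1 and 0.003 ± 0.335 for minP1.

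Of 7 other genes that modify or fold collagen, 6 were tested, and in the combination against control 1 was called higher and 1 lower, near the 16.5% and 18.3% over all tested genes, with a median of -0.62. The collagen chaperone Serpinh1 fell (-2.41 ± 0.38, adjusted p = 5.44e-05), to 35.6 ± 7.24 CPM in the combination against 190 ± 77.7 CPM in control. It also fell in the combination against minP1 (-1.84 ± 0.40) and against anti-PD-L1 (-1.43 ± 0.42), with adjusted p of 0.00237 and 0.0365. The lysyl hydroxylase Plod2, another HIF target, rose by 0.86 ± 0.31 (adjusted p = 0.0329), and Plod3 was at -0.87 ± 0.37 (adjusted p = 0.0654). Without control replicate 3, as with the Bc1 and Lrrc17 covariate, the list had 0 called higher and 1 lower. The summed fibroblast markers given above lay lower in the combination, with overlap, and their part was not tested.

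Libraries of a group varied together in several of these genes. Control replicate 3 was the highest of its group in 5 of the 5 tested genes, and minP1 replicate 2 the lowest of its group in 5 of 5. In the groups with the antibody some ranks of Bnip3 differed from the rest. Combination replicate 2 was the highest in Bnip3 and the lowest in the other 4. Anti-PD-L1 replicate 1 was the highest in Bnip3 and the lowest in Vegfa, Ndrg1 and P4ha1, but its Bnip3 lay only 0.13 log2 units above the group mean. After subtraction of group means, Pearson's r over the 12 libraries was 0.87 for Hif1a with Ndrg1, 0.79 for Ndrg1 with P4ha1 and 0.72 for Vegfa with Ndrg1. For Bnip3 it was 0.46 with Hif1a, 0.46 with Ndrg1, 0.34 with P4ha1 and 0.25 with Vegfa. These are descriptions, since the values share library, depth and scaling. In each group the library with the highest Bc1 and Lrrc17 share was also the lowest in Ndrg1, at 6.32% in combination replicate 2, 4.42% in anti-PD-L1 replicate 1, 4.17% in minP1 replicate 2 and 2.34% in control replicate 1, and whether that share has a part in the level was not tested beyond the covariate fits. The spread of the 5 genes around their group means was above that of most genes, with a biological coefficient of variation of 31.6% for Vegfa, 28.3% for Ndrg1, 26.8% for P4ha1, 25.4% for Hif1a and 24.2% for Bnip3, and a median of 21.4% over all tested genes.

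**Figure D4:**
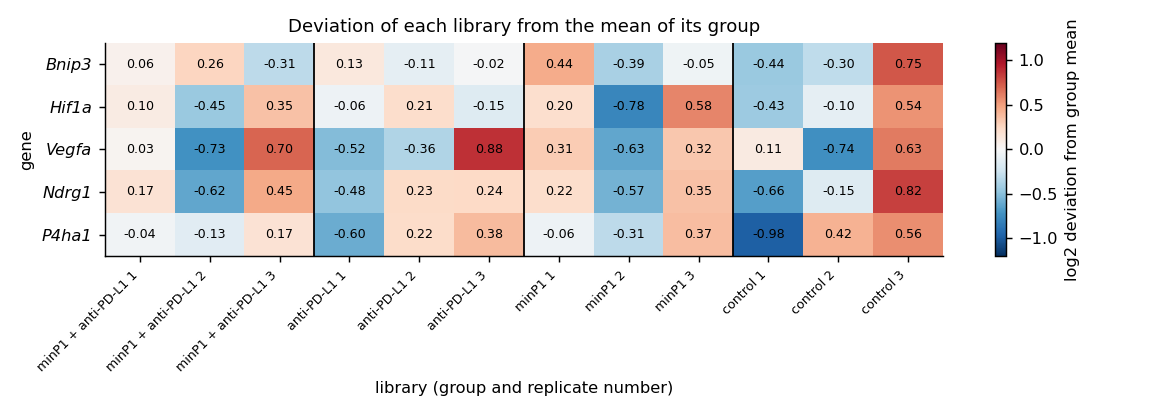
Log2 deviation of each library from the mean of its group (colour and printed number) for the 5 tested genes (rows) in the 12 libraries (columns, by group and replicate). Control replicate 3 is above its group mean in every row, and minP1 replicate 2 below it in every row.

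The tested genes whose level followed each member most closely over the 12 libraries were taken as the 3 with the highest Pearson's r of log2 CPM, as a description. For Bnip3 they were Tatdn2 (0.93), the metallothionein Mt1 (0.91), which binds zinc and copper, and B2m (0.90), the light chain of MHC class I. For Hif1a they were the interferon-induced GTPase Gbp4 (0.91), the complement protease C1ra (0.87) and the MHC class II chain H2-Aa (0.84). For Vegfa they were Chchd3 (0.93), a protein of mitochondrial cristae, Bex3 (0.92) and the annexin Anxa7 (0.91). Ndrg1 was closest to the ubiquitin ligase scaffold Cul3 (0.90), Emilin2 (0.88) and Pign (0.84). P4ha1 was closest to the nuclear RNA Malat1 (0.92), Plekha2 (0.91) and Nfkbiz (0.89), which encodes a nuclear protein. None of these genes was named for more than 1 member.

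Further HIF targets on a chosen list were called more often higher than lower. The list was drawn up with earlier results of these data known, so its counts are a description and no test of HIF targets at large. Of 30 other targets outside glycolysis, 28 had a row and 14 were tested, and in the combination against control 6 were called higher and 1 lower, where 16.5% and 18.3% of all tested genes were, with a median log2 fold change of 0.76 beside -0.06 for all tested genes. The heme oxygenase Hmox1 rose by 2.44 ± 0.33 (adjusted p = 1.08e-05), to 307 ± 64.5 CPM in the combination against 56.6 ± 10.1 CPM in control. The transcriptional repressor Bhlhe40 rose by 1.83 ± 0.25 (adjusted p = 1.17e-05), the mitochondrial protein Fam162a by 1.46 ± 0.28 (adjusted p = 0.000423) and the transferrin receptor Tfrc by 1.43 ± 0.29 (adjusted p = 0.000748). The other two called higher were the chemokine receptor Cxcr4 (2.504 ± 0.73, adjusted p = 0.0105), named here after its values were seen, and Plod2 above, and the gene called lower was Bnip3l. Hmox1 and Bhlhe40 rose in the combination against anti-PD-L1 as well, by 1.41 ± 0.32 and 1.14 ± 0.24, with adjusted p of 0.00923 and 0.00719. Several of these genes answer to other signals too, Hmox1 to heme and oxidants and Tfrc to iron. The list had 6 called higher and 0 lower without control replicate 3, 7 higher and 1 lower with both minP1 replicate 2 and anti-PD-L1 replicate 1 left out, and 5 higher and 0 lower with the Bc1 covariate. No gene of this list was called with either lone treatment against control. Macrophages, whose marker sum was higher in the combination as given above, are rich in Hmox1, and their part was not tested.

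Of the 14 targets with a row that were too scarce to test, 9 held at least 30 counts over all libraries, a limit set after the counts were seen. Their level in the pooled libraries, with no test, was higher in the combination for 4 and lower for 5. The iron carrier Trf stood at 54.1 CPM in the combination and 7.48 CPM in control (25 and 8 counts), and the collagen cross-linker Lox at 43.3 CPM in the combination and 11.2 CPM in control (20 and 12 counts). Pfkfb3, a regulator of glycolytic flux though counted on this list, was at 28.1 CPM in the combination and 8.42 CPM in control (13 and 9 counts). The carbonic anhydrase Car9 was at 19.5 CPM in the combination and 15.9 CPM in control (9 and 17 counts). The stress regulator Ddit4 was at 2.16 CPM in the combination and 25.2 CPM in control (1 and 27 counts), the lipid regulator Angptl4 at 4.33 CPM in the combination and 14.96 CPM in control (2 and 16 counts), and Hilpda at 4.33 CPM in the combination and 12.2 CPM in control (2 and 13 counts). Mxi1 and Ankrd37 were close, at 26.0 and 15.2 CPM in the combination and 29.0 and 15.9 CPM in control.

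Among the glycolytic enzymes, which HIF also induces, 7 fell with Vegfa and 7 did not pass. Of 16 enzymes 14 were tested, and in the combination against control 0 were called higher and 7 lower, beside 16.5% and 18.3% of all tested genes, with a median of -0.82. With the Bc1 and Lrrc17 covariate 1 was called higher and 5 lower, and with both minP1 replicate 2 and anti-PD-L1 replicate 1 left out 1 higher and 7 lower. The log2 fold change was -2.72 ± 0.44 for Aldoa (adjusted p = 7.37e-05), -2.09 ± 0.36 for Ldha (adjusted p = 0.000137), -1.75 ± 0.32 for Pkm (adjusted p = 0.000265) and -1.56 ± 0.30 for Tpi1 (adjusted p = 0.000397). Ldha, which makes lactate, stood at 147 ± 40.3 CPM in the combination and 629.5 ± 146 CPM in control. In the combination 7 of the 14 were called lower against minP1, where 10.8% of all tested genes were, and 5 against anti-PD-L1, where 3.95% were. Those with a value above 0, named after it was seen, were Pfkp at 0.94 ± 0.39 (adjusted p = 0.0626), Pdk1 at 0.71 ± 0.47 (adjusted p = 0.249) and Hk1 at 0.05 ± 0.46 (adjusted p = 0.946). Of these Pdk1, a kinase of pyruvate dehydrogenase, was counted on the list but is not itself an enzyme of glycolysis. The glycolytic list too was drawn up with earlier results of these data known, and its difference from the 7 hypoxia genes was not tested.

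**Figure D5:**
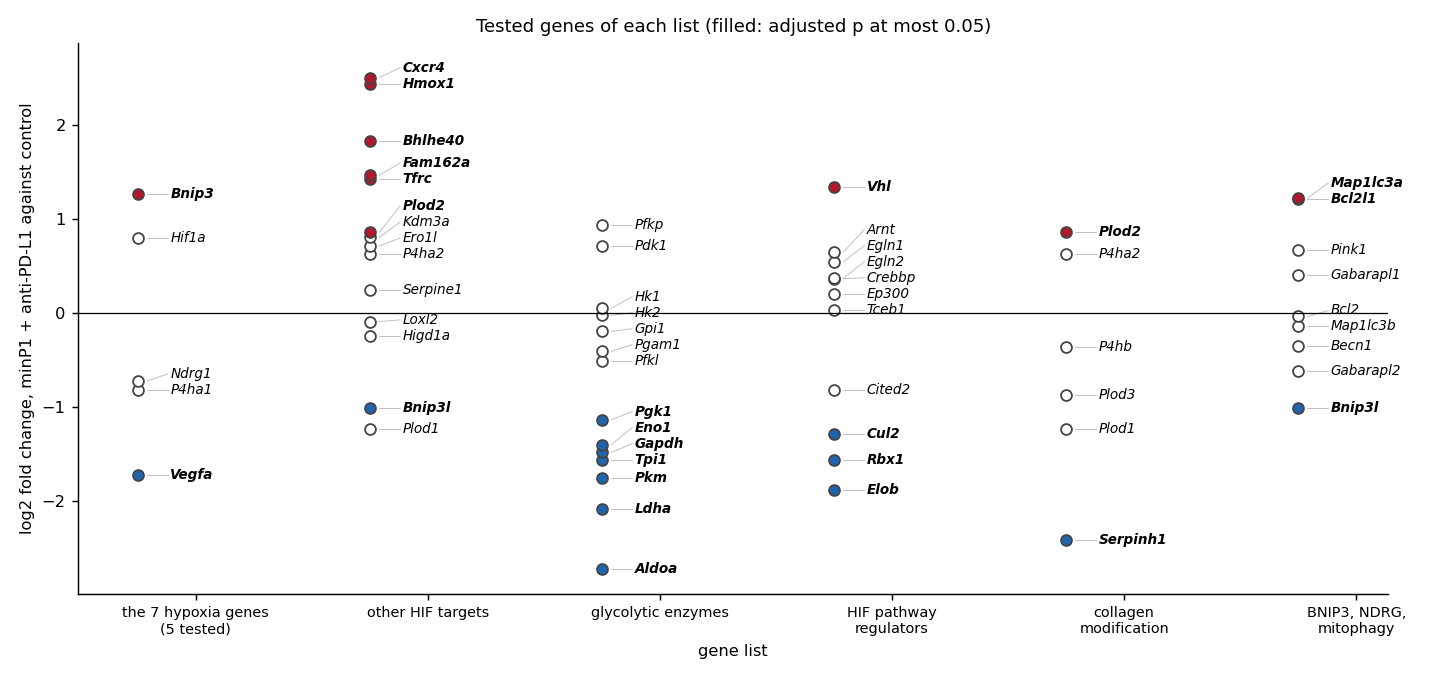
Log2 fold change in the combination against control (vertical axis) of every tested gene in 6 lists (horizontal axis); filled points have an adjusted p of 0.05 or less in edgeR's quasi-likelihood test, red higher and blue lower, and Plod1, Plod2, P4ha2 and Bnip3l stand in 2 lists each. Bnip3 (1.27) and Vegfa (-1.73) lie on opposite sides, as do the HIF target Hmox1 (2.44) and the glycolytic enzyme Aldoa (-2.72).

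Whether the peptide acted differently on these genes with and without the antibody was asked by the interaction, which takes the difference of the combination and anti-PD-L1 and subtracts the difference of minP1 and control. None of the 5 genes passed, and edgeR called 0 of 5443 genes in all, with 600 at an unadjusted p under 0.05, while DESeq2 called 20. The interaction was -1.198 ± 0.70 for Vegfa (adjusted p = 0.561), -0.72 ± 0.53 for P4ha1 (0.66), -0.70 ± 0.53 for Ndrg1 (0.673), -0.30 ± 0.41 for Bnip3 (0.847) and -0.24 ± 0.46 for Hif1a (0.897). The 95% interval for Vegfa was -2.65 to 0.26. The combination against anti-PD-L1 gave no call among the 5, where 6.94% of all tested genes were called, 2.99% higher and 3.95% lower. Ndrg1 there was at -0.83 ± 0.40 (adjusted p = 0.204). No gene of the 5443 was called in minP1 against control by edgeR, with 383 at an unadjusted p under 0.05 and 1 called by DESeq2. Each of the 5 genes overlapped between minP1 and control, where 5.7% of all tested genes lay wholly higher and 6.69% wholly lower in minP1.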

How the data were processed

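The deposited values were whole-number counts of 5′-end tags per gene symbol, 1 table per sample, not normalized, per the file headers. Build mm10 and the tools Bowtie2 2.2.5, DESeq2 and R 3.6.1 are named, with no roles, per the submitters' processing notes. How tags were counted, against which annotation and with what use of strand is not given in the sources used here. Overlapping genes could therefore share tags with the members. They are Gm45507 and Gm18258 at Bnip3, Gm15283 and Gm49321 at Hif1a, Gm28863 at Adm, and Gm17035 and Gm2895 at Ndrg1. Tags without molecular identifiers are not independent molecules, so counting intervals cover counting error only.

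Here filterByExpr at its defaults kept 5443 of 19921 symbols, with 89.8% to 93.6% of each library's counts. Library sizes over those genes were scaled by TMM, and edgeR 4.0.16 (R 4.3.3) fitted 1 mean per group to all 12 samples. The SE is the absolute log2 fold change divided by the root of the F statistic. DESeq2 1.42.0 was an alternative. No 2 libraries of a group agreed within sampling noise. Coordinates are from GENCODE M21 (GRCm38, the same assembly as mm10). Permutation over single genes was not used, since its exact p cannot go below 0.1 with 3 against 3. Named genes are the 7 members, up to 4 genes per list by smallest p in the combination against control, and the 3 closest genes of each tested member. Others are said in the text to be named after their values were seen, or are cell markers. The members and lists were chosen with earlier results of these data known. Alternatives were other filters, scalings, depths, covariates, samples and tools.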

Additional observations from a re-analysis of the deposited data

How the results depend on the processing

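Bnip3 in the combination against control passed in every one of 21 alternatives. The number of the 5 genes called stayed at 0 in minP1 against control and in the interaction. In the combination against control it was 2 and ran between 1 and 4 when single libraries were left out. In the combination against minP1 it was 1, became 0 with DESeq2 and 2 with the replicate block or with only the groups compared, and ran between 0 and 2 when single libraries were left out. In anti-PD-L1 against control it was 0, and 1 (Bnip3) with no filter on low counts, DESeq2, the replicate block, only the groups compared, or library sizes over all symbols, an alternative chosen after seeing the data. With the Bc1 and Lrrc17 covariate it was also 1 (Hif1a, 1.29), and it ran between 0 and 1 when single libraries were left out. In the combination against anti-PD-L1 it was 0, and 1 (Vegfa) with the replicate block.

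Over all genes, minP1 against control had 0 called, and 51 with no filter, 1 with DESeq2, 1 with the covariate and 0 to 5 when single libraries were left out. Anti-PD-L1 against control had 61, and 167 with no filter, 173 with the replicate block, 126 with only the groups compared, 24 at equal depth, 35 with the covariate, 24 with both minP1 replicate 2 and anti-PD-L1 replicate 1 left out, and 1 to 169 when single libraries were left out. The combination against control had 1892, and 1057 at equal depth and 849 with the covariate, and 1433 to 2054 when single libraries were left out. Against minP1 it had 1088, and 690 at equal depth, 634 with the covariate and 1378 with those libraries left out, and 600 to 1346 when single libraries were left out. Against anti-PD-L1 it had 378, and 613 with those libraries left out, and 94 to 499 when single libraries were left out. The interaction had 0, and 37 with no filter, 20 with DESeq2, 16 with the replicate block, 35 with the covariate, 65 with those libraries left out, and 0 to 8 when single libraries were left out.

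Some differences changed direction, none of them called in the reported fit or where the direction changed, and the cause was not tested. In minP1 against control P4ha1 was -0.000272 with DESeq2 size factors and -0.35 to 0.32 when single libraries were left out, and Ndrg1 was 0.0943 at equal depth, 0.15 with the covariate, 0.11 with both minP1 replicate 2 and anti-PD-L1 replicate 1 left out, and -0.40 to 0.46 when single libraries were left out. Vegfa there was 0.06 without those 2 libraries and -0.47 to 0.20 when single libraries were left out. In anti-PD-L1 against control Ndrg1 was -0.0106 at equal depth and -0.15 to 0.69 when single libraries were left out, Vegfa was 0.26 with the covariate and -0.99 to 0.0781 when single libraries were left out, and P4ha1 was 0.42 with the covariate, 0.13 without those 2 libraries and -0.43 to 0.22 when single libraries were left out. With the covariate Ndrg1 in the combination was 0.23 against control and 0.0786 against minP1. When single libraries were left out Hif1a was -0.0693 to 0.38 in the combination against anti-PD-L1 and -0.61 to 0.10 in the interaction.

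The replicate numbers were not taken as pairs in the reported fit. Of 18 same-numbered pairs across groups, 9 had deviations that correlated above 0.1, with a median of 0.10. The 36 differently numbered pairs across groups had a median of -0.04. Whether libraries of the same number share an origin was not tested beyond the fit with a replicate block. With the number as a replicate block, Bnip3 in anti-PD-L1 against control (1.15, adjusted p = 0.0209), Hif1a in the combination over control (0.81, adjusted p = 0.035), and Vegfa in the combination against minP1 (-1.57, adjusted p = 0.0105) and against anti-PD-L1 (-1.40, adjusted p = 0.0472) passed in edgeR, and no call of a hypoxia gene was lost. Vegfa has no value in the combination against anti-PD-L1 with only those groups, since it failed the filter there. Depth limits the low genes most: Adm had 12 counts and Egln3 23 over all libraries.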
